A study of Mus musculus with 5 samples.

Results

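The Eif genes encode the eukaryotic initiation factors, the proteins that bring messenger RNA, initiator tRNA and ribosomal subunits together at the start of translation, and their kinases, binding proteins and close relatives. Members were the protein-coding mouse genes in RefSeq's GRCm38.p6 annotation (the coordinate system of mm10) with a symbol made of Eif and a digit. There were 56, and the 55 on chromosomes 1 to 19 and X were set beside all 21627 protein-coding genes there. The remaining one, Eif2s3y, lies on chromosome Y, where none of the 3 lists holds a peak. A peak counted for a gene if it shared at least 1 bp with the gene body or the 2 kb flank on either side, and a gene with an H2AK119ub peak is called marked. The set was selected on the peak calls of these same 3 lists, whose results were known when it was proposed, so its shares are descriptions and carry no test.

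The peaks came from chromatin immunoprecipitation and sequencing (ChIP-seq) of mouse embryonic stem cells of the line MPI-II. H2AK119ub, the histone ubiquitin mark of Polycomb repressive complex 1, was profiled in DDX5 knockout and in wild-type cells. RYBP, a subunit of the complex's variant forms, was profiled in the wild type alone, with an antibody to DEDAF, its alias. DDX5 is a DEAD-box RNA helicase, and the knockout was 1 clone, obtained by nicking the second exon of Ddx5 with SpCas9 nickase at paired sites. All groups were grown on feeder cells in medium with serum, LIF, the MEK inhibitor PD0325901 and the GSK3 inhibitor CH99021. Each group had 1 library, so differences between genotypes could not be checked against replicates or tested. The lists hold positions and no heights, so read depth is unknown, and the cell type could not be checked against marker expression. The knockout list held 20994 H2AK119ub peaks with a median width of 1083 bp, the wild-type list 24235 with a median of 1360 bp, and the RYBP list 9564 with a median of 1634 bp.

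Initiation begins when eIF2 carries the initiator tRNA to the small ribosomal subunit, where eIF1, eIF1A and eIF3 assemble with it. The eIF4 factors recognise the cap of the messenger RNA and unwind its leader, and eIF5 and eIF5B lead to joining of the large subunit. Most of these proteins are needed in every cell and their genes have CpG-rich promoters, whereas H2AK119ub in embryonic stem cells is best known at CpG-rich promoters of silent developmental genes.

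H2AK119ub was found at a smaller share of Eif genes than of all protein-coding genes. Over the gene and 2 kb flanks, RYBP was found at a share near that of all genes. Within 2 kb of the start, for the 43 members with a strand, its share was larger, 51.2% against 31.1% of 17273 genes. RYBP peaks met 24 of 55 members, 43.6% (Wilson 95% interval 31.4% to 56.7%), against 37.6% of all protein-coding genes. H2AK119ub met 2 members in the knockout, 3.64% (1.00% to 12.3%), where it met 23.6% of all protein-coding genes. It met 8 members in the wild type, 14.5% (7.56% to 26.2%), where it met 27.9% of all genes. The intervals treat genes as independent and cover counting error only. The median gene length was 17815 bp for the members and 17330 bp for all protein-coding genes.

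The members with RYBP and no mark in either genotype numbered 18 of 55, 32.7% (21.8% to 45.9%), against 16.4% of all genes. Of the 24 members with RYBP, 6 had the wild-type mark, 25% (12% to 44.9%), where 52.0% of all genes with RYBP had it. These 6 are 10.9% of the members, against 19.6% of all genes with both. A further 29 members had no peak in any library, 52.7%, where 52.8% of all genes had none. No member was marked in the knockout alone, which is 0 of 55 and allows a share of up to 5.45%, against 3.00% of all genes. The mark was present in the wild type alone at 6 members, 10.9%, against 7.20% of all genes, and in both genotypes at 2 members, 3.64%, against 20.7% of all genes. Counted over the gene alone, with no flank, the mark met 2 members in the knockout, against 21.5% of all genes, and 4 in the wild type, 7.27%, against 25.4%. With 5 kb flanks it met 6 members in the knockout, 10.9%, against 25.5% of all genes, and 9 in the wild type, 16.4%, against 30.1%. The share marked in the wild type alone was above that of all genes with 2 kb flanks and not with the other flanks. It was 3.64% (Eif1b and Eif5a2) against 6.71% with no flank, 5.45% against 7.06% with 1 kb flanks and 7.27% against 7.54% with 5 kb flanks, where Eif1b, Eif3d and Eif6 had the mark in both genotypes.

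**Figure D1:**
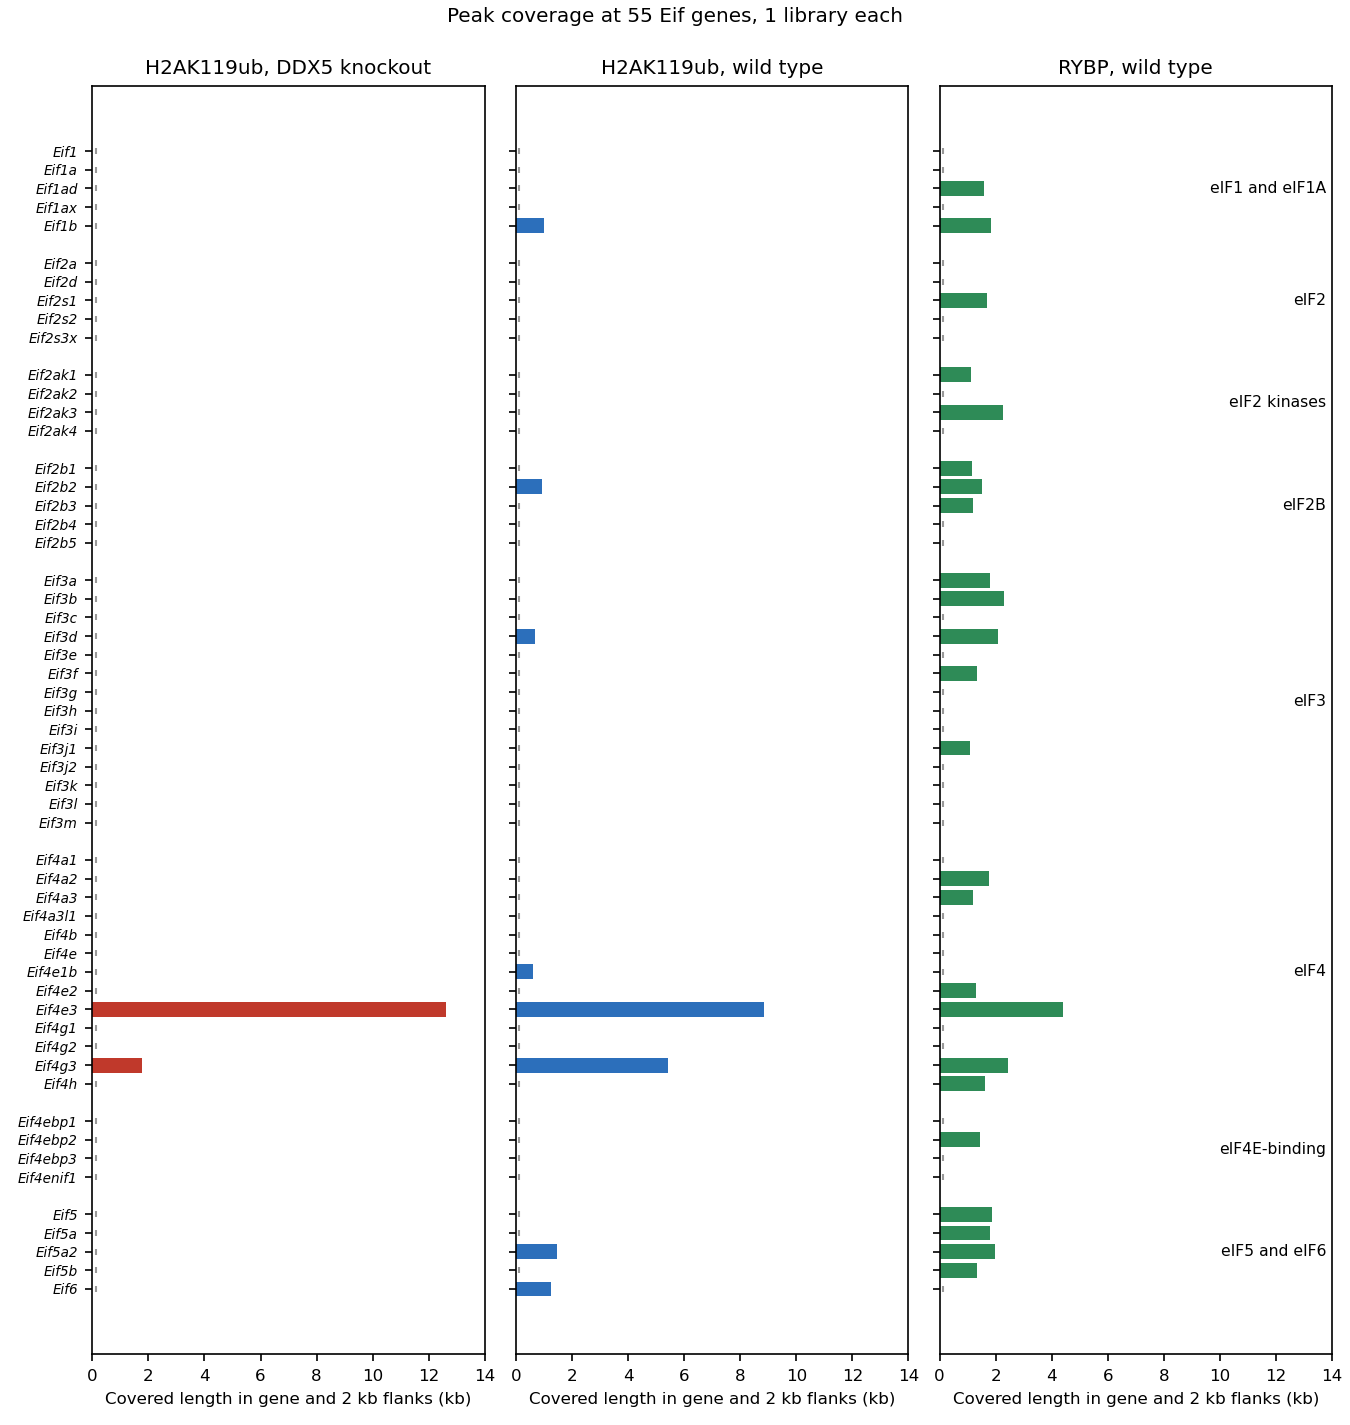
Length covered by peaks (kb) within each of 55 Eif genes and its 2 kb flanks, for knockout H2AK119ub, wild-type H2AK119ub and wild-type RYBP, 1 library each, in order of factor complex; a small grey tick marks a value of 0. The long H2AK119ub bars belong to Eif4e3 (12611 bp in the knockout and 8835 bp in the wild type) and Eif4g3 (1784 bp in the knockout and 5405 bp in the wild type), while RYBP bars, from 1079 to 4413 bp, are spread over every complex.

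In the members that had RYBP, the peak sat on the start of the gene. The reference tables gave a strand for 22 of the 24, and at 21 of these a RYBP peak held the start, 95.5% (78.2% to 99.2%), where 71.8% of 6394 such protein-coding genes had a peak holding the start. The start here is the outermost coordinate of the gene on its strand. The exception was Eif4g3, whose RYBP peak missed that coordinate and held the 2 annotated starts further in. The 21 peaks reached a median of 685 bp before the start (69 to 1240 bp) and 989 bp after it (416 to 1240 bp). Their centres lay between 137 bp before and 470 bp after the start, with a median of 38 bp after it. At 3 members the peak also held the start of a neighbouring gene: Banf1 at Eif1ad, Atp6v1d at Eif2s1 and Gtf2h3 at Eif2b1. These 3 peaks cannot be assigned to 1 gene of the pair. Of the 26 RYBP peaks at all members, 7 met another gene or its 2 kb flank, including those at Eif4e2 (Chrng) and Eif5b (Txndc9).

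**Figure D2:**
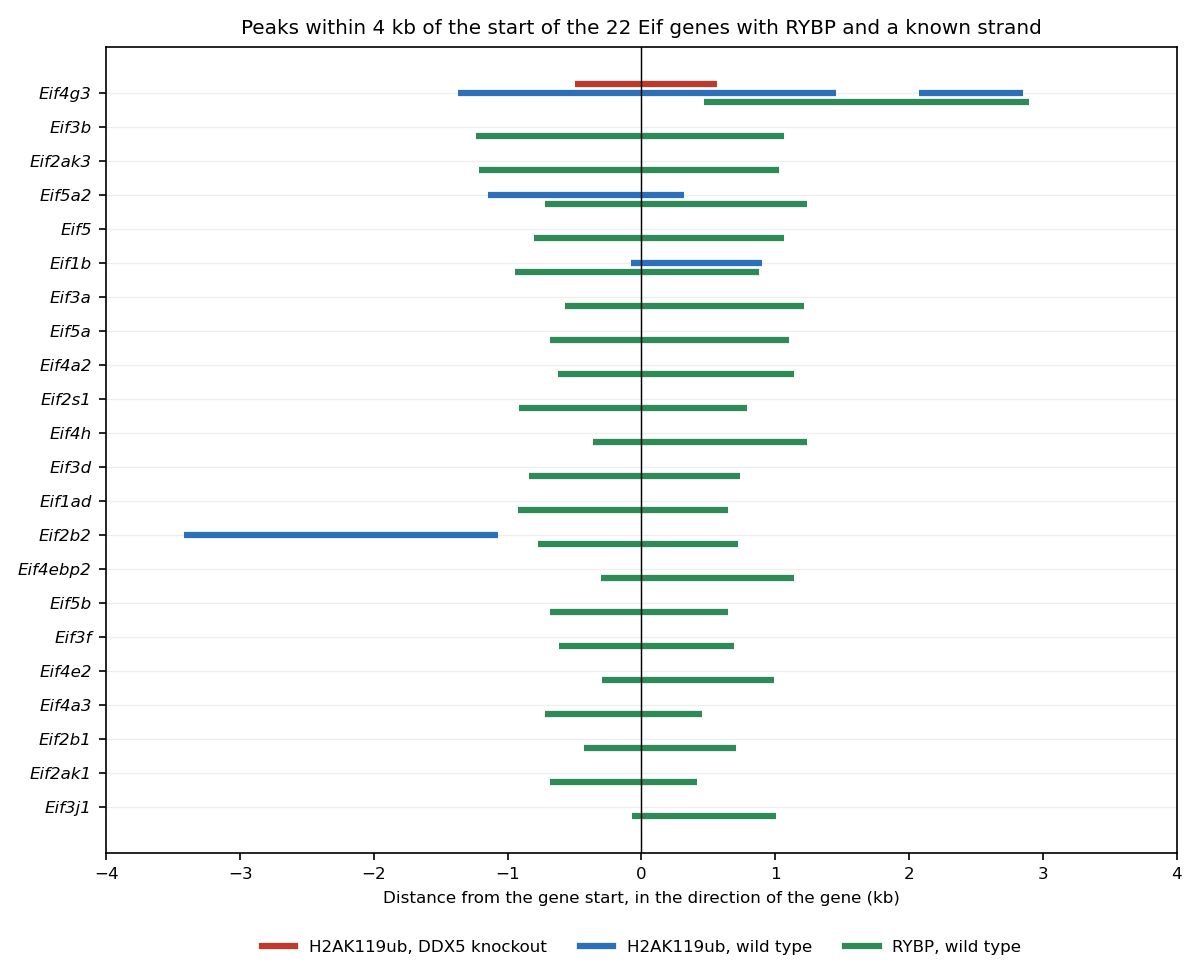
Peaks within 4 kb of the start of the 22 members with RYBP and a known strand, drawn by distance from the start (kb) in the direction of the gene and ordered by the width of the RYBP peak, 1 library per colour. RYBP peaks straddle the start at 21 genes, wild-type H2AK119ub overlaps the RYBP peak at Eif5a2 and Eif1b and lies apart from it at Eif2b2, and H2AK119ub of both genotypes overlaps it at Eif4g3.

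At Eif4g3, Eif5a2 and Eif1b the wild-type mark and RYBP met at or close to the start. Their promoters are shown with that of Eif1, the paralog of Eif1b that had no peak in any library. Each line is the 250 bases before an annotated start on GRCm38.p6, from RefSeq, read in the direction of the gene, with CpG dinucleotides, which CXXC proteins such as KDM2B bind, in capitals. The stretches lie at chr4:137993205-137993454 on the plus strand for Eif4g3, chr3:28781027-28781276 on the plus strand for Eif5a2, chr9:120492356-120492605 on the plus strand for Eif1b and chr11:100319699-100319948 on the plus strand for Eif1.
Eif4g3: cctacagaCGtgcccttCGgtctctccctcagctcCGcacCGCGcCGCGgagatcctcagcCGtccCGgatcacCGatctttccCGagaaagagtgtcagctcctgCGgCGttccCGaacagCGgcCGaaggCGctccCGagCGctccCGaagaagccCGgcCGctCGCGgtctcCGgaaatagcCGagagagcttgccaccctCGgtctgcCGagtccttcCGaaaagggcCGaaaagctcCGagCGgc
Eif5a2: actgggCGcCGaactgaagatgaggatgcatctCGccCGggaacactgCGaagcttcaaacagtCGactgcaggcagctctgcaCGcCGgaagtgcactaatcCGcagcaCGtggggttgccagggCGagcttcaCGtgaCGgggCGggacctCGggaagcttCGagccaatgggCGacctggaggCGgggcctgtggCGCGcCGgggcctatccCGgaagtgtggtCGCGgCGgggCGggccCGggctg
Eif1b: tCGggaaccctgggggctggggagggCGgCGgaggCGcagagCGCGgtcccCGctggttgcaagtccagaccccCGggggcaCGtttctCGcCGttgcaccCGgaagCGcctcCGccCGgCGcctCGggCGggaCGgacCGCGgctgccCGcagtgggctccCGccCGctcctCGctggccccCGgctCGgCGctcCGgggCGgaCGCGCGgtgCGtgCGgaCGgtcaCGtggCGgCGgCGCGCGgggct
Eif1: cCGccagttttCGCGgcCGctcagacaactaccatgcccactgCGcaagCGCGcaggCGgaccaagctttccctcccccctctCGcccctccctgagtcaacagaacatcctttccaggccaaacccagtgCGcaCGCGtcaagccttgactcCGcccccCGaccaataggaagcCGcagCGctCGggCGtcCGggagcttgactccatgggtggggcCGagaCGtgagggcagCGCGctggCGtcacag
The stretch of Eif1b holds 42 CpG, that of Eif4g3 32, that of Eif5a2 27 and that of Eif1 24. Eif1 is thus CpG-rich as well, without a peak.

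CpG content was high across the members. Promoter sequences of 300 bases, from 250 before to 50 after the start, were matched for 43 of the 55 members. The median was 24 CpG per promoter in the members and 14 in 17273 protein-coding genes. Members with RYBP at the start had a median of 30 CpG (11 to 50, 22 genes), and members without it had 22 (3 to 37, 21 genes). In all protein-coding genes the medians were 25 with RYBP at the start and 7 without it. The member ranges overlapped over most of their length: Eif2a and Eif4b had 37 CpG and no RYBP at the start, while Eif5a had 11 and Eif3f had 12 with it. The Eif5a value refers to the outermost of 6 annotated starts, 5 of which lie in its RYBP peak.

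**Figure D3:**
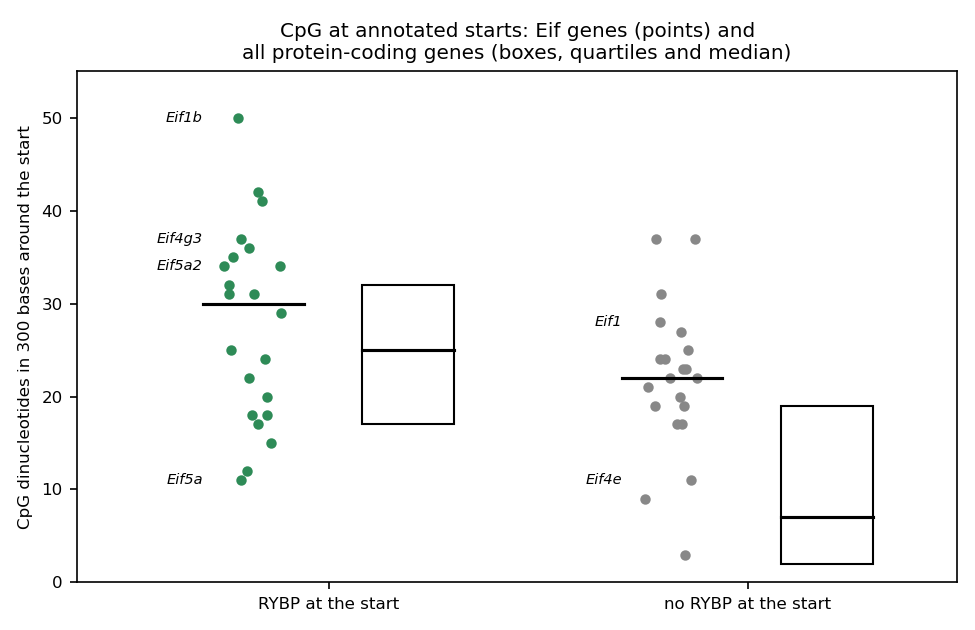
CpG dinucleotides in the 300 bases around the start of 43 Eif genes (points, with short lines at the medians), split by RYBP at the start, beside boxes for the quartiles and median of all protein-coding genes in the same class. Members with RYBP have a median of 30 and members without it 22, and the box for all genes without RYBP lies lower, with a median of 7.

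Short motifs were counted on both strands of the same 300 bases. GGGCGG, the core of SP factor sites, was present in 31 of 43 members, 72.1%, and in 46.9% of all promoters. It was found in 77.3% of members with RYBP at the start and in 66.7% of those without. For all protein-coding genes these shares were 72.6% and 36.4%. CGGAAG, an ETS-type word that can share bases with GGGCGG, was present in 21 members, 48.8%, and in 21.8% of all promoters. CCAAT was present in 32.6% of members and 39.6% of all promoters. TATAAA was present in 3 members, Eif2s1, Eif3b and Eif3f, which is 6.98% against 13.4% of all promoters. These 3 members had RYBP at the start. Over all protein-coding genes the word was rarer with RYBP at the start, in 5.90% of promoters, than without it, in 16.5%. The palindromic NRF1 motif was present in 1 member, Eif3k, and in 1.35% of all promoters, and AAGATGGCG in 0 members and in 1.92%. A match is a word in this window and was not tested as a binding site.

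Among the genes of eIF1 and eIF1A, factors of start codon selection, and Eif1ad, grouped with them by symbol, 2 of 5 had RYBP. This is 40%, against 37.6% of all protein-coding genes. The mark met 1 member, in the wild type, 20% against 27.9%. The groups here and below hold 4 to 14 genes, so these shares rest on few genes. Eif1b (gene ID 68969, chromosome 9, 120492606 to 120495327) had no H2AK119ub in the knockout and 984 bp in the wild type, from 120492526 to 120493509, with a RYBP peak of 1825 bp from 120491658 to 120493482. The wild-type mark lay over the start and the first part of the gene, nearly all of it inside the RYBP peak. It was narrow, with 22.6% of wild-type peaks narrower. The nearest knockout peak lay 4480 bp from the gene. Eif1ad, a protein with an eIF1A-like domain, had 1571 bp of RYBP alone. Eif1, Eif1a and Eif1ax had no peak, and the nearest RYBP peak lay 33131 bp from Eif1, 22890 bp from Eif1a and 598189 bp from Eif1ax.

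Of the eIF2 group, which delivers the initiator tRNA, 1 of 5 members had RYBP, 20%, against 37.6% of all genes. None was marked in either genotype, against 23.6% of all genes in the knockout and 27.9% in the wild type. Eif2s1, the alpha subunit whose phosphorylation lowers general translation, had 1700 bp of RYBP. Eif2s2 and Eif2s3x, the beta and gamma subunits, and Eif2a and Eif2d, which can deliver tRNA without eIF2, had no peak. Their nearest RYBP peaks lay between 18734 bp (Eif2a) and 207410 bp (Eif2s3x) away.

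The 4 kinases that phosphorylate the alpha subunit were split, with RYBP at 2, 50%, against 37.6% of all genes. None was marked in either genotype, against 23.6% of all genes in the knockout and 27.9% in the wild type. Eif2ak3 (PERK), the kinase of the endoplasmic reticulum, had 2249 bp of RYBP, and Eif2ak1 (HRI), the heme-regulated kinase, had 1102 bp. Eif2ak2 (PKR), which senses double-stranded RNA, and Eif2ak4 (GCN2), which senses uncharged tRNA, had none. Eif2ak4 had a RYBP peak 3715 bp from the gene, outside the flank.

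The subunits of eIF2B, which recharges eIF2 with GTP, had RYBP at 3 of 5 members, 60%, against 37.6% of all genes. It covered 1136 bp at Eif2b1, 1497 bp at Eif2b2 and 1184 bp at Eif2b3. The mark met 1 member, in the wild type, 20% against 27.9%. Eif2b4 and Eif2b5, which encodes the catalytic subunit, had no peak. Eif2b2 (gene ID 217715, chromosome 12, 85219481 to 85226628) had no mark in the knockout and 929 bp of it in the window in the wild type. That wild-type peak, 2349 bp from 85216061 to 85218409, ended 1072 bp before the start and did not meet the RYBP peak, which held the start. The nearest knockout peak lay 21421 bp from the gene.

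The eIF3 scaffold, the largest complex, had RYBP at 5 of 14 members, 35.7%, near the 37.6% of all genes. The mark met 1 member, in the wild type, 7.14% against 27.9%. RYBP covered 2304 bp at Eif3b and 1788 bp at Eif3a, both core subunits. RYBP also covered 2074 bp at Eif3d, 1315 bp at Eif3f and 1079 bp at Eif3j1. Eif3c, Eif3e, Eif3g, Eif3h, Eif3i, Eif3j2, Eif3k, Eif3l and Eif3m had no peak. Eif3j2 is a short relative of Eif3j1 (2419 bp against 25053 bp), and how reads shared by such copies were placed was not tested.

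Eif3d (gene ID 55944, chromosome 15, 77958998 to 77970824), a subunit that can bind the cap, carried its mark at the far end and its RYBP at both ends. In the window it had no mark in the knockout and 671 bp of it in the wild type. The wild-type peak, 2394 bp from 77955275 to 77957668, began 1330 bp beyond the end of the gene and overlapped Foxred2. A second RYBP peak, 2255 bp wide, lay there too. A knockout peak met this wild-type peak and ended 2306 bp from Eif3d, 306 bp outside the window, so the loss at Eif3d rests on the width of the flank.

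The eIF4 group, which binds the cap and unwinds the leader, held both members marked in both genotypes. RYBP met 6 of 13 members, 46.2%, against 37.6% of all genes. The mark met 2 in the knockout, 15.4% against 23.6% of all genes, and 3 in the wild type, 23.1% against 27.9%. The group was thus below the shares of all genes for the mark in both genotypes. RYBP without the mark was found at Eif4a2 (1760 bp) and Eif4a3 (1179 bp), a helicase of the exon junction complex. It was also found at Eif4h (1603 bp), which stimulates the eIF4A helicase, and at Eif4e2 (1287 bp), a cap-binding protein that acts in repression.

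Eif4e3 (gene ID 66892, chromosome 6, 99621879 to 99692873), a cap-binding relative of eIF4E, had the most mark of any member. H2AK119ub covered 12611 bp in 7 knockout peaks and 8835 bp in 6 wild-type peaks, a ratio of 1.43 between single libraries. RYBP covered 4413 bp in 2 peaks. In both genotypes the mark lay in the lower part of the gene, in its middle and at its upper end. A knockout peak of 1247 bp, from 99657217 to 99658463, met no wild-type peak. Another of 3531 bp, from 99692892 to 99696422, lay beyond the upper end over Gpr27 and had no wild-type counterpart. This flank peak gave 1982 of the 12611 bp, so the ratio of 1.43 is not that of the gene alone. Wild-type H2AK119ub from 99665068 to 99666837 met no knockout peak. The wider RYBP peak, 3187 bp from 99691381 to 99694567, covered the upper end of Eif4e3 and part of Gpr27, an orphan receptor gene.

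Values of the surrounding chromosome stand beside this. Over chromosome 6 as a whole, knockout H2AK119ub covered 1.36 times the wild-type length, where the other chromosomes lay between 0.52 and 0.84. In the stretch of chromosome 6 from 90 to 100 Mb the ratio was 1.35, beside 1.43 at Eif4e3, which counts the flank peak over Gpr27. The wild-type peaks at Eif4e3 all lay inside the gene. Without the 1982 bp of that knockout flank peak, the ratio for the gene alone is below 1.43 and below 1.35. The part of the chromosome in the value at Eif4e3 was not tested. The other members on chromosome 6, Eif2ak3 and Eif4a3l1, had no mark in either genotype.

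Eif4g3 (gene ID 230861, chromosome 4, 137991779 to 138207086), a scaffold of the cap complex that is needed for meiosis in male mice, had less mark in the knockout. H2AK119ub covered 1784 bp in 2 knockout peaks and 5405 bp in 4 wild-type peaks, a ratio of 0.33, where the ratio over chromosome 4 was 0.57. At the lower end of the gene, a knockout peak of 1063 bp lay inside a wild-type peak of 2826 bp. The other knockout peak, 721 bp, lay 133832 bp inside the gene and met no wild-type peak. The other wild-type peaks, 777, 922 and 880 bp wide, met no knockout peak. RYBP covered 2432 bp from 137992246 to 137994677 and held both annotated starts, 1676 and 1677 bp inside the lower coordinate of the gene. Wild-type H2AK119ub lay on either side of these starts, and held neither.

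**Figure D4:**
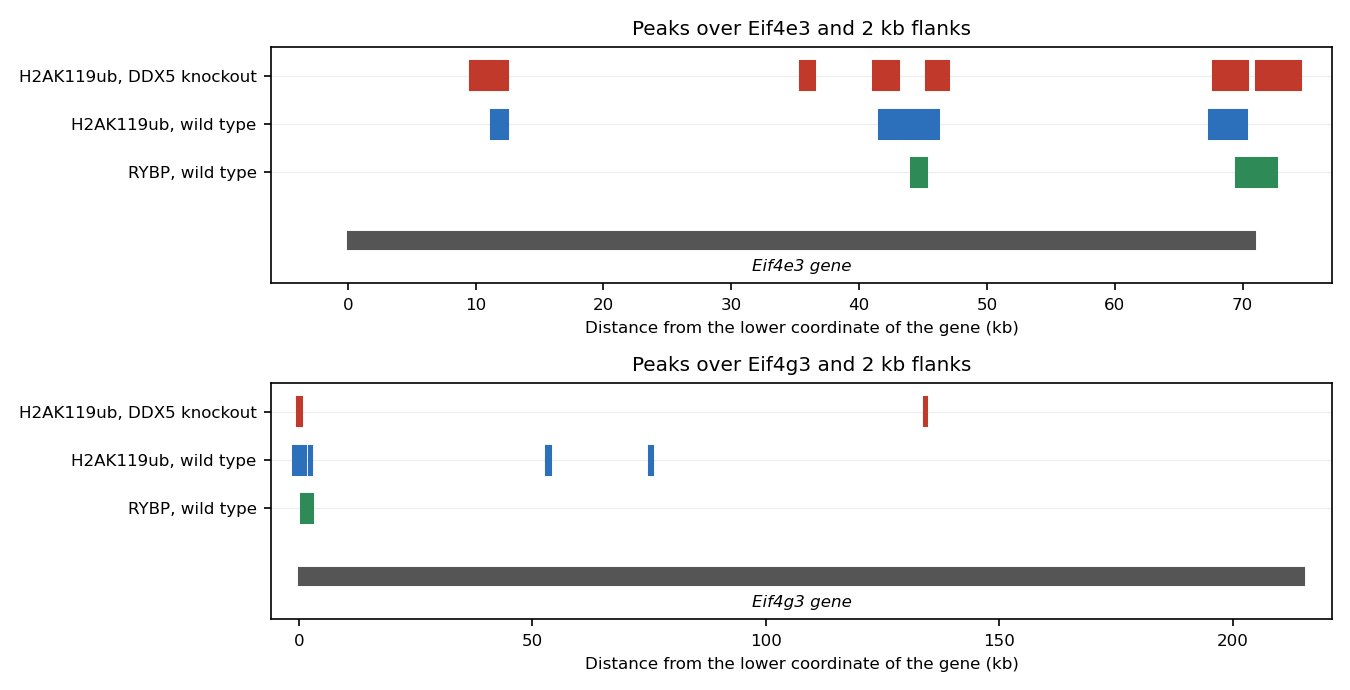
Peaks over Eif4e3 and Eif4g3, drawn by distance (kb) from the lower coordinate of each gene, which is the grey bar; rows are knockout H2AK119ub, wild-type H2AK119ub and wild-type RYBP, 1 library each. Eif4e3 carries the mark at its upper end, in its middle and in its lower part in both genotypes, and Eif4g3 carries it in both at its lower end.

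Eif4e1b (gene ID 218268, chromosome 13, 54783994 to 54788459), the cap-binding relative of oocytes, had 0 bp of mark in the knockout and 599 bp in the window in the wild type, with no RYBP. Its wild-type peak, 1153 bp from 54789861 to 54791013, lay beyond the gene and overlapped Tspan17. The rest of the group, Eif4a1, Eif4a3l1, Eif4b, Eif4e, Eif4g1 and Eif4g2, had no peak. Eif4a1, Eif4e and Eif4g1 encode the main helicase, cap-binding protein and scaffold. Eif4b had a RYBP peak 720 bp and a knockout H2AK119ub peak 2358 bp outside its window. Eif4a3l1 is a short relative of Eif4a3 (2445 bp against 11681 bp).

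Among the proteins that bind eIF4E, 1 of 4 members had RYBP, 25%, against 37.6% of all genes. None was marked, against 23.6% of all genes in the knockout and 27.9% in the wild type. Eif4ebp2, an mTOR-regulated repressor, had 1442 bp of RYBP. Its relatives Eif4ebp1 and Eif4ebp3 and the transport protein Eif4enif1 had no peak.

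Of the factors of subunit joining and later steps, 4 of 5 members had RYBP, 80%, against 37.6% of all genes. The mark met 2 in the wild type, 40% against 27.9%. RYBP covered 1963 bp at Eif5a2, 1871 bp at Eif5, the activator of GTP hydrolysis by eIF2, 1786 bp at Eif5a and 1332 bp at Eif5b. Eif5a2 (gene ID 208691, chromosome 3, 28781032 to 28798846) is the tissue-restricted relative of Eif5a, the hypusine-bearing factor that helps ribosomes past difficult stretches. It had no mark in the knockout and a peak of 1466 bp in the wild type, from 28779885 to 28781350, over its start. The nearest knockout peak lay 515478 bp from the gene. Eif6 (gene ID 16418, chromosome 2, 155819837 to 155826925), which keeps the large subunit from joining early, had no mark in the knockout, 1265 bp in the window in the wild type and no RYBP. Its wild-type peak, 1493 bp from 155817609 to 155819101, lay outside the gene over Mmp24 and BC029722, and the nearest knockout peak lay 3106 bp from Eif6.

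**Figure D5:**
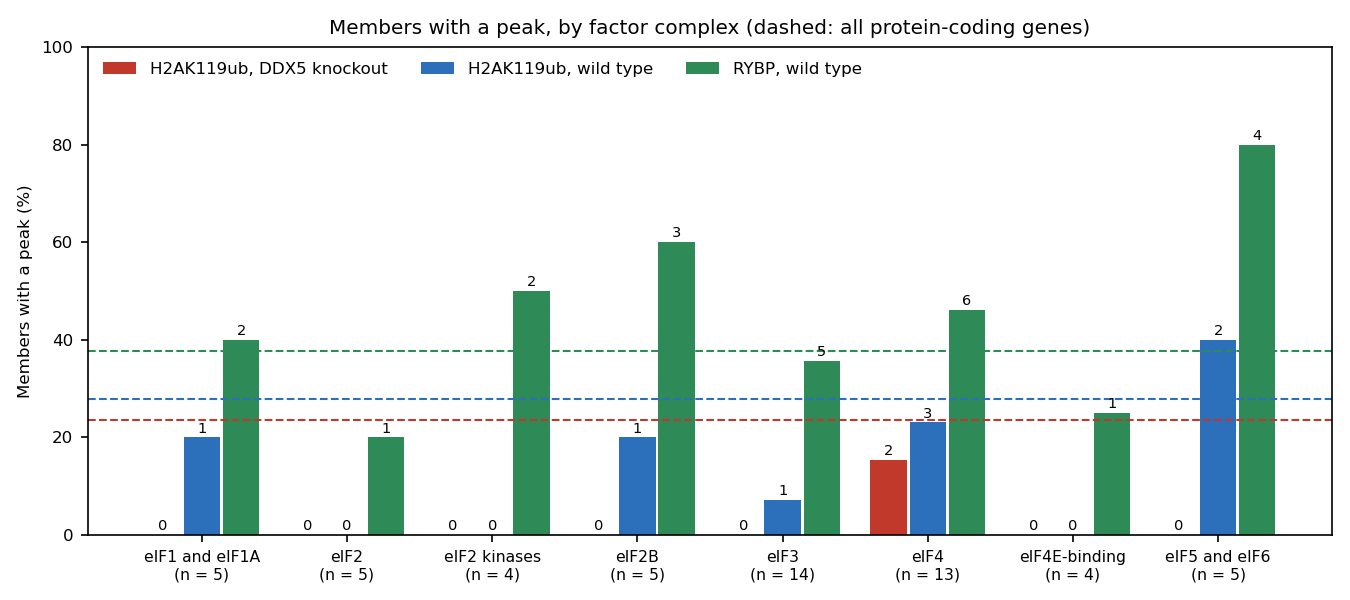
Share of members with a peak (%) in each factor complex, for knockout H2AK119ub, wild-type H2AK119ub and wild-type RYBP, 1 library each; numbers over the bars are counts of genes and dashed lines are the shares of all protein-coding genes (23.6%, 27.9% and 37.6%). Knockout H2AK119ub is present in the eIF4 group, at 2 of 13 genes, and at 0 genes of the other groups, while RYBP is present in each group.

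Paralogs differed in their peaks in most of the families compared, while Eif1a and Eif1ax both had no peak. In the Eif2ak, Eif3j, Eif4a and Eif4ebp families no relative had the mark in either genotype. Within the families compared, the relative with the mark was Eif1b and not Eif1, Eif5a2 and not Eif5a, and Eif4g3 and not Eif4g1 or Eif4g2. Of the eIF4E family, Eif4e3 had the wild-type mark over the gene and Eif4e1b had it only in a flank, over Tspan17. Eif4e2 had RYBP alone and Eif4e had no peak. Of the helicases, Eif4a2 and Eif4a3 had RYBP and Eif4a1 had no peak. Expression was not measured in these files, so the families are compared by peaks alone.

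Where RYBP and the mark met, RYBP peaks were wider. A wider peak is more likely to share 1 bp with another peak, so the overlap rule itself favours this direction. The 6 RYBP peaks at members that met wild-type H2AK119ub had a median width of 2109 bp (1226 to 3187 bp), and the 20 that met none had 1534 bp (1079 to 2304 bp), so the groups overlapped. In the whole RYBP list these medians were 1883 bp for 4436 peaks and 1489 bp for 5128 peaks. Of the 6 RYBP peaks at members that met the mark, 2 lay at Eif4e3, so they are not separate members. Of the 16 wild-type H2AK119ub peaks at members, 7 met a knockout peak, with a median width of 1497 bp, and 9 met none, with 1153 bp. Most of the 7 lay at Eif4e3, so these peaks are not separate members. In the whole wild-type list 11862 peaks met a knockout peak, with a median width of 1851 bp, and 12373 met none, with 1120 bp. Of the 8 members with the mark in wild-type cells, 2 carried it in knockout cells, 25% (7.15% to 59.1%), against 74.1% over all genes with the wild-type mark. This share moved with the window: it was 2 of 4 members, 50%, with no flank and 5 of 9, 55.6%, with 5 kb flanks, where all genes gave 73.5% and 74.9%. Without chromosome 6 it was 1 of 7, 14.3%, against 73.5%.

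The position of the mark also differed among the members. Of the 8 members with it in the wild type, 4 had it only in a flank, outside the gene (Eif2b2, Eif3d, Eif4e1b and Eif6), and at all but Eif2b2 the peak overlapped another gene. The flank peaks lay 736 bp (Eif6), 1072 bp (Eif2b2), 1330 bp (Eif3d) and 1402 bp (Eif4e1b) from the gene. At the other 4 (Eif1b, Eif4e3, Eif4g3 and Eif5a2) the mark lay over the gene. The nearest peaks just outside the flank were the knockout mark 2306 bp from Eif3d, RYBP 2720 bp from Eif4b, the knockout mark 3106 bp from Eif6 and the wild-type mark 3128 bp from Eif4a3. With a window of 2 kb on either side of the start, for the 43 members with a strand, RYBP met 22 members, 51.2%, against 31.1% of 17273 genes. In that window H2AK119ub met 1 member in the knockout, 2.33%, against 15.5% of genes, and 4 in the wild type, 9.30%, against 18.8% of genes. RYBP without the mark in either genotype was found at 18 of the 43, 41.9%, against 16.7% of genes.

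Other genes of translation were read in the same way. Over 50 genes of elongation, termination, poly(A) binding, mTOR signalling and the integrated stress response, H2AK119ub met 6 in the knockout (12%) and 9 in the wild type (18.0%), and RYBP met 20 (40.0%). For the Eif genes these shares were 3.64%, 14.5% and 43.6%, and for all protein-coding genes 23.6%, 27.9% and 37.6%. The difference between the sets was not tested. Of 13 elongation genes, the mark met 3 in knockout cells, 23.1%, and 4 in wild-type cells, 30.8%, near the shares of all genes. Eef1a2, the form of muscle and neurons, had 7211 bp in the knockout and 10983 bp in the wild type, with 1725 bp of RYBP. Eef1d had 3671 bp of mark in the knockout, 7327 bp in the wild type and 4411 bp of RYBP. Eef2k, the kinase of eEF2, had 1225 bp of mark in the knockout and 723 bp in the wild type, and Eefsec, which serves selenocysteine, had 0 bp in the knockout and 1180 bp in the wild type. Eef1b2 had 1266 bp of RYBP alone.

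Of 9 termination and recycling genes, Pelo was marked, with 1617 bp in the knockout, 1714 bp in the wild type and 2269 bp of RYBP, and Denr (2446 bp) and Gspt1 (1769 bp) had RYBP alone. Of 8 genes of poly(A) binding, 0 were marked, and Pabpc1 (2509 bp), Paip1 (1208 bp) and Paip2b (1623 bp) had RYBP. In the mTOR arm, Mknk1, a kinase of eIF4E, had 5605 bp in the knockout and 5685 bp in the wild type, with 1166 bp of RYBP. Mknk2 was marked in the knockout alone, over 633 bp, and Pdcd4, an inhibitor of eIF4A, in the wild type alone, over 1487 bp. The wild-type mark at Mlst8 was 4 bp at the edge of its window, beside 924 bp of RYBP, and Larp1 had 1072 bp of RYBP alone. In the stress response list, Gcn1, the partner of the kinase GCN2, had no mark in the knockout and 1967 bp in the wild type, with 1293 bp of RYBP, and Atf4 had 2107 bp of RYBP alone.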

How the data were processed

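ChIP-seq peak lists of 3 libraries were used: knockout H2AK119ub, wild-type H2AK119ub and wild-type RYBP. Each sample's group comes from its title, and the 2 input libraries were not analysed here. Bowtie2 2.2.5, MACS 1.4 and the build mm10 are named per the submitters' processing notes. What each tool did, the peak threshold and any use of input are not given in the sources. The authors' files give 1 list per library, so peaks were called per library. The deposited score is 0 for every peak, so position and width alone were used. Fewer reads or weaker enrichment in a library would by themselves reduce the number and width of its peaks.

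Starts were converted to positions counted from 1. Gene positions are those of RefSeq on GRCm38.p6, without exons. A strand and promoter sequence came from the RefSeq promoter table, for 43 of 55 members. Covered length is the union of peaks in a gene and its 2 kb flanks. The start is the outer gene coordinate by strand, and promoter counts use the annotated start nearest to it. Shares carry Wilson intervals at 95%, which cover counting error, and a count of 0 is given the limit of 3 counts. With 1 library per group no test between genotypes was possible. Python 3.11.15, pandas 2.3.3, NumPy 2.4.6, SciPy 1.17.1 and matplotlib 3.10.9 were used. The overlap step was tested on simulated peaks.

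Named genes were every member with the mark, every member without RYBP, the 3 members of each complex with the most RYBP, paralogs that differed, and in the lists of other translation genes those with the mark and up to 3 with RYBP. The members and lists were chosen with earlier results of these data known. Other windows, overlaps, peak widths and chromosome sets were tried as 11 alternatives.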

Additional observations from a re-analysis of the deposited data

How the results depend on the processing

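The 6 counts of members were recomputed under 11 alternatives. The count with RYBP stayed between 22 and 26, and the count with RYBP and no mark in either genotype between 17 and 20. The shares moved more, since the start window has 43 members. There they were 51.2% and 41.9%, against 31.1% and 16.7% of all genes. With 2 kb flanks they were 43.6% and 32.7%, against 37.6% and 16.4%. The counts with H2AK119ub moved with the flank. With 5 kb flanks the knockout mark met 6 members (Eif1b, Eif3d, Eif4b and Eif6 besides Eif4e3 and Eif4g3), 10.9% against 25.5% of all genes. In that window 1 member, Eif4b, was marked in the knockout alone, 1.82% against 3.02%. The knockout count was 1 with the start window alone, where Eif4e3 has no strand, 2.33% against 15.5% of all genes. It was 1 without chromosome 6, 1.92% against 23.3%, since Eif4e3 lies there. Without chromosomes 6 and 8 it was also 1, 1.96% against 22.7%. The wild-type count was 4 with no flank, 5 with 1 kb flanks and 4 with the start window. The count marked in the wild type alone was 2 with no flank (Eif1b and Eif5a2), 3.64% against 6.71% of all genes. That count was 3 with 1 kb flanks, 5.45% against 7.06%, and 3 with the start window. Its share was above that of all genes with the start window (6.98% against 5.98%) and with both gene ends (10.9% against 7.16%). The same held with peaks of at least 1 kb (9.09% against 8.16%) and at least 50% of the peak in the window (7.27% against 7.05%). The share of wild-type marked members with any knockout peak in the same window lay between 14.3% (without chromosome 6, and without 6 and 8) and 55.6% (5 kb flanks). For all genes it lay between 67.2% and 77.0%. With 5 kb flanks Eif1b and Eif6 were counted, though the wild-type peaks in their 2 kb windows met no knockout peak. The other alternatives, which were windows at both gene ends, at least 50% of the peak in the window, a minimum peak width of 1 kb, the same number of H2AK119ub peaks per genotype (the widest) and autosomes alone, kept each count within 1.5 times its value. Eif5a2 was marked in the wild type alone under all 11 alternatives. Eif1b, with a peak under 1 kb, lost the mark under the minimum width, and Eif2b2 and Eif3d lost it when at least 50% of the peak had to lie in the window. Peak lists without heights and with unknown depth limit every absence to a peak not called. No paired analysis was possible because each group has 1 library.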
